A study of Mus musculus with 6 samples.

Results

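The tetraspanin genes of a mouse gastric adenocarcinoma cell line were compared between the parental line and a paclitaxel-resistant derivative. Paclitaxel (PTX) is a drug that stabilises microtubules. All genes with a Tspan name followed by a number were taken, together with the 7 tetraspanins that carry Cd names, namely Cd9, Cd37, Cd53, Cd63, Cd81, Cd82 and Cd151. This gave 27 of the 21959 genes in the count tables. The parental line is labelled MPC. The derivative MPC-PTX carries the label PTX resistance and was treated with PTX over 30 cycles of rising concentration. Each line was measured by messenger RNA sequencing in 3 libraries that share 1 batch label. Both lines carry the genotype CDH1-/-;Trp53-/-, so the deletions are present in the control as well. The cells descend from stomach organoids of a floxed mouse, and from a tumour that these organoids formed under the skin of a nude mouse. Before that, the organoids were treated with tamoxifen, so that an inducible Cre under the Mist1 promoter inactivated both genes. For Cdh1 the study reports the deletion of an exon. Each line was taken through selection of a single clone, so differences between the lines cannot be told apart from differences between 2 clones. The labels do not say whether the 3 libraries of a line came from separate cultures, and p-values then measure only the spread between these libraries.

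Tetraspanins are small proteins that cross the membrane 4 times and gather one another, integrins, immunoglobulin-domain proteins and proteases into patches of the cell surface called tetraspanin-enriched microdomains. Members of the TspanC8 subgroup escort the sheddase ADAM10 out of the endoplasmic reticulum and steer it to its substrates. Cd9, Cd63 and Cd81 are sorted into extracellular vesicles and serve as their standard markers, and epithelial cells use Cd151 to hold laminin-binding integrins. Cd37, Cd53 and Tspan32 are known from leukocytes.

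The libraries held 16574580 to 23148182 counts on 13897 to 14295 genes. The MPC libraries differed more from one another (biological coefficient of variation 17.9%) than the MPC-PTX libraries (3.01%). MPC replicate 3 stood apart from the other MPC libraries. Its deviation from the mean of its line correlated across 11776 genes with transcript GC content (Spearman's rho -0.58) and with transcript length (0.47), genes not being independent replicates. MPC replicates 1 and 2 showed trends of the opposite sign (rho 0.47 and 0.35 with GC content, -0.43 and -0.21 with length). Deviations were taken from the mean of the same 3 libraries, so these trends are not separate from that of replicate 3. Calls that changed without MPC replicate 3 are named with their values without it. The epithelial markers Epcam, Krt8, Krt18 and Krt19 were abundant in all libraries, with a summed level of 6901 to 7969 counts per 1000000 reads (CPM) in MPC and 3986 to 4093 CPM in MPC-PTX, and all 4 were called lower. Of 12 gastric markers, 4 could be tested and all of these were lower in MPC-PTX, whereas Gkn2, Tff1, Tff2 and Pgc were at 0 in every library. The 9 leukocyte markers reached only 0.928 to 1.81 CPM in sum in MPC and 0.812 to 1.19 CPM in MPC-PTX, and none passed the filter on low counts. The 7 fibroblast markers summed to between 8.63 and 10.9 CPM, the 5 endothelial markers to between 2.21 and 3.08 CPM, and the 3 platelet markers to between 5.35 and 13.9 CPM. Cdh1 had 2217 to 3068 counts and Trp53 had 63 to 142 counts per library. Gene totals do not show which exons these reads came from, and neither gene differed between the lines by edgeR's quasi-likelihood test (adjusted p = 0.864 and 0.228).

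The most marked differences were losses of Tspan6 and Tspan8 and a gain of Tspan13 in MPC-PTX. Of the 27 genes, 22 had enough counts for the test, in which a gene was called when edgeR's quasi-likelihood p, adjusted by the Benjamini-Hochberg method over all 11795 tested genes, was below 0.05. In MPC-PTX 10 tetraspanin genes fell and 2 rose. Among all tested genes, 15.6% were called lower and 14.1% were called higher, which gives the background for these counts. With a log2 fold change beyond 1 as a further condition, 2 tetraspanin genes were lower and 1 was higher, against 4.2% and 3.54% of all tested genes. The median log2 fold change was -0.24 over the 22 tested members and 0.04 over all tested genes, and 18 of the 22 values were negative. The 3 libraries of one line lay entirely above or below those of the other for 17 of the 22 genes, 14 lower and 3 higher in MPC-PTX, where 46.9% of all tested genes showed such a separation. Summed over the 27 genes, the level was 2173, 2219 and 1992 CPM in MPC and 1781, 1727 and 1729 CPM in MPC-PTX. In whole-culture RNA, fewer cells that express a gene and less RNA per cell cannot be told apart.

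**Figure D1:**
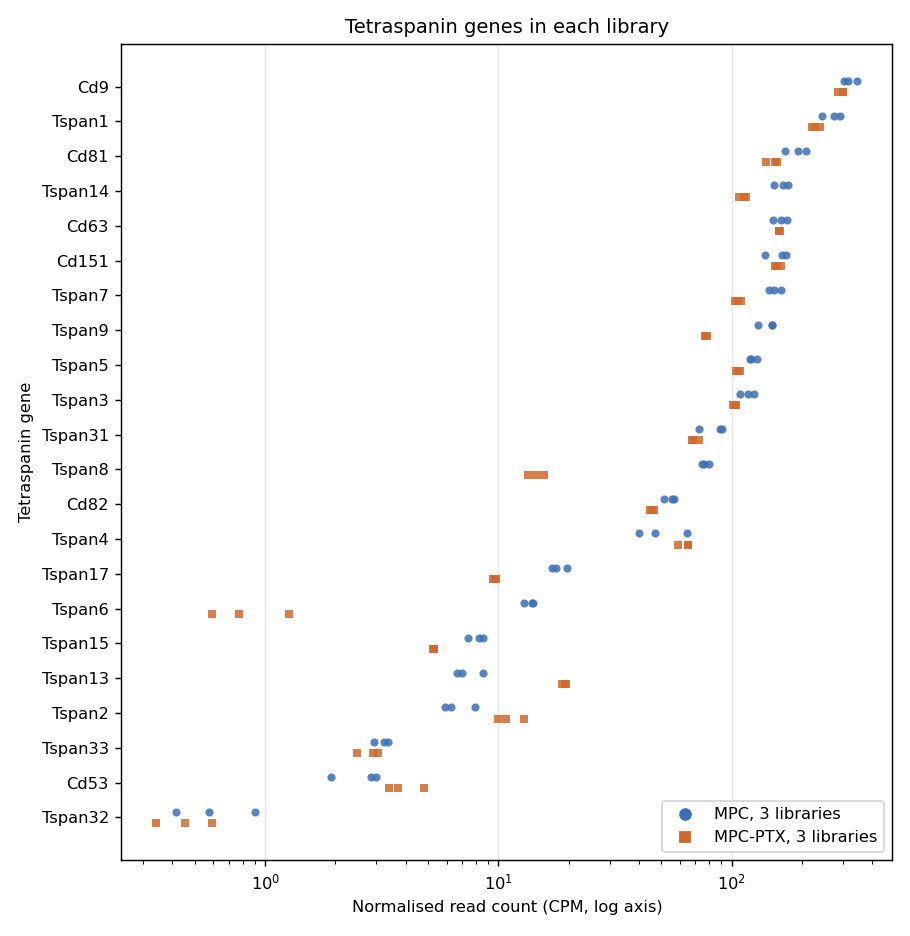
Normalised read count of the 22 tested tetraspanin genes in each library, in CPM on a log axis, with circles for the 3 MPC libraries and squares for the 3 MPC-PTX libraries. Tspan6 and Tspan8 sit far to the left in MPC-PTX and Tspan13 and Tspan2 to the right, while the symbols of Cd63 and Cd151 overlap.

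Tspan6, an X-linked member whose protein can bind the adaptor syntenin, was measured at 12.9, 13.9 and 14.1 CPM in MPC and at 0.769, 1.26 and 0.594 CPM in MPC-PTX. These levels correspond to 243, 270 and 293 reads in MPC and 18, 28 and 10 reads in MPC-PTX. The lines were far apart, and MPC-PTX kept 6.58% of the MPC level. The log2 fold change was -3.93 (SE 0.22, adjusted p = 4.24e-05, edgeR's quasi-likelihood test).

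Tspan8 is a tetraspanin of the gastrointestinal epithelium that is studied in carcinomas for its part in cell motility and vesicle release. Its level was 76.3, 74.5 and 79.6 CPM in MPC and 15.8, 13.4 and 14.5 CPM in MPC-PTX. Every MPC library was well above every MPC-PTX library, and 19.0% of the MPC level was left. The log2 fold change was -2.40 (SE 0.09, adjusted p = 9.23e-06, edgeR's quasi-likelihood test). The change in the epithelial and gastric markers went the same way as that of Tspan8, with log2 fold changes from -1.02 to -0.59 for the 4 epithelial genes. The 4 tested gastric genes ranged widely, with log2 fold changes of -0.29 for Muc1, -0.46 for Cldn18, -7.54 for Ctse and -8.62 for Anxa10. Their part in the loss of Tspan8 was not tested.

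Tspan13 was the member with the clearest gain. It was measured at 7.01, 6.65 and 8.55 CPM in MPC and at 19.4, 18.8 and 19.3 CPM in MPC-PTX. The MPC-PTX libraries lay close together and all were above the highest MPC library. The fold change was 2.58 (log2 1.37, SE 0.12, adjusted p = 2.58e-04, edgeR's quasi-likelihood test). Under a stricter test, edgeR's glmTreat, which asks whether the change exceeds 1 on the log2 scale, Tspan13 had an unadjusted p of 0.00176 and an adjusted p of 0.052.

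The promoters of these 3 genes are shown because their RNA changed most. Each run is the 250 bases before the annotated RefSeq start, written 5′ to 3′ on the strand of the gene. Capitals mark any of 4 motifs, which were searched on both strands and do not overlap where found in these windows. A GC box was defined by the letters GGGCGG. The CCAAT box was taken by the pentamer of its name. A TATA box was defined by the letters TATAAA, and an AP-1 motif was defined by the letters TGANTCA with any base in its middle. Positions are on GRCm38.p6, the build of the RefSeq table. In the GENCODE annotation of that build the Tspan6 gene spans chrX:133891068-133898429, the Tspan8 gene chr10:115816832-115849893 and the Tspan13 gene chr12:36014557-36042500. The sequences are chrX:133898430-133898679 on the minus strand for Tspan6, chr10:115817034-115817283 on the plus strand for Tspan8 and chr12:36042479-36042728 on the minus strand for Tspan13. By these positions the Tspan8 window lies wholly inside the GENCODE span of its gene, and the Tspan13 window reaches partly into that of its gene.
Tspan6: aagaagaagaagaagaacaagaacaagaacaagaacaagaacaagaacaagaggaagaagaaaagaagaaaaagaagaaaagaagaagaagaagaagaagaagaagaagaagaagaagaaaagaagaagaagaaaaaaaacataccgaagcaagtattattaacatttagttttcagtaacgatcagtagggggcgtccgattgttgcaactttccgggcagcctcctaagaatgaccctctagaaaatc
Tspan8: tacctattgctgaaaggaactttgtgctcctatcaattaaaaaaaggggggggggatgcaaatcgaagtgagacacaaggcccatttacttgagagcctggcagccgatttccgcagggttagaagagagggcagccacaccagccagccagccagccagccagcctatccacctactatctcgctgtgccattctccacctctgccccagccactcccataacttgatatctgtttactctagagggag
Tspan13: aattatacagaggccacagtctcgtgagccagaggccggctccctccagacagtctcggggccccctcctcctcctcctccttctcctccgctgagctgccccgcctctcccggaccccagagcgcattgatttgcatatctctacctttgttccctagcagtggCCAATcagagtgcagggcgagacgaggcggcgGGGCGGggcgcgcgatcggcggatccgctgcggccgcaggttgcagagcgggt
The 3 windows differ in base composition. The Tspan13 window is rich in GC (66%) and holds 21 CpG sites, the Tspan6 window has 36% GC and 5 CpG sites, with a long run of AAG repeats at its far end, and the Tspan8 window has 52.4% GC and 4 CpG sites. Over all 32851 windows of this length the medians were 52.4% GC and 6 CpG sites. In the Tspan13 window a GC box lies 53 to 48 bases and a CCAAT box 85 to 81 bases before the start, whereas these letters were not found in the other two windows. A GC box was present in 32.7% of all windows, a CCAAT box in 33.8%, a TATA box in 12.4% and an AP-1 motif in 6.75%. The 36 windows of 26 members held a GC box in 16, a CCAAT box in 11, and a TATA box and an AP-1 motif in 1 each. These matches describe the letters and are not evidence of binding.

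**Figure D2:**
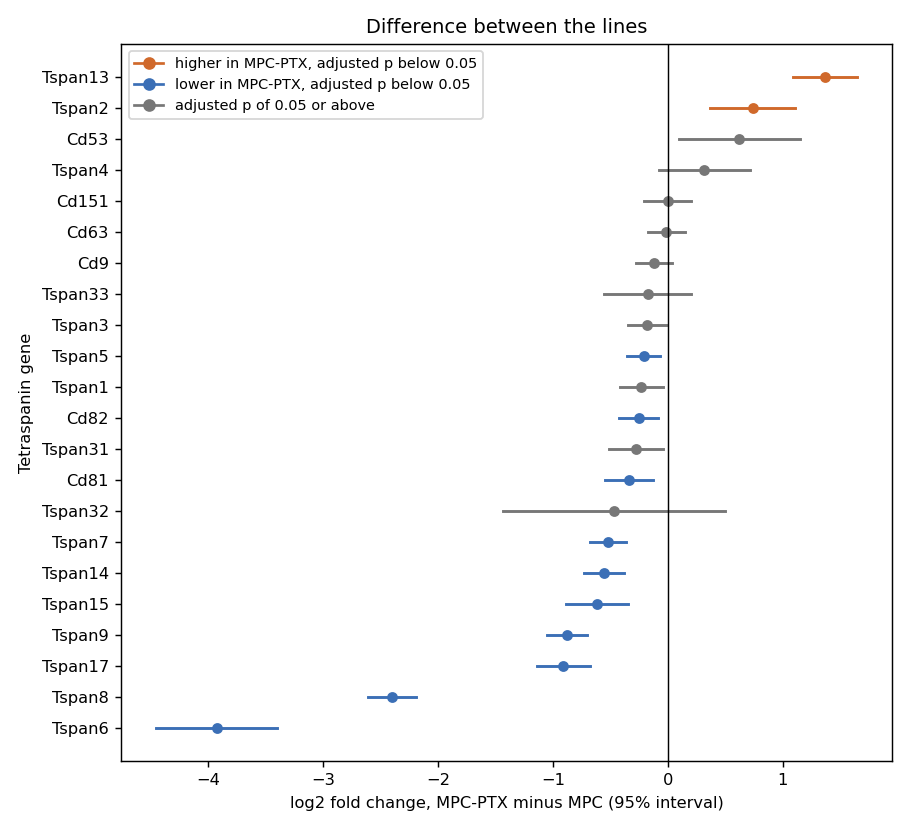
Log2 fold change (MPC-PTX minus MPC) of the 22 tested tetraspanin genes with 95% intervals from edgeR's quasi-likelihood fit. The 10 genes called lower run from Tspan6 at -3.93 to Tspan5 at -0.21, and the genes called higher are Tspan2 at 0.74 and Tspan13 at 1.37.

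Among the TspanC8 genes, whose proteins partner ADAM10, 4 of the 5 tested members fell and none rose, with a median log2 fold change of -0.56, beside 15.6% of all tested genes called lower and 14.1% called higher. Of these 4, Tspan5 was called in only 6 of 13 alternative fits. Their summed level was between 299.6 and 335.6 CPM in MPC and between 230.9 and 242.1 CPM in MPC-PTX. Tspan17 showed the largest fall of this subgroup. It had 17.0, 19.7 and 17.7 CPM in MPC and 9.70, 9.74 and 9.51 CPM in MPC-PTX, with a log2 fold change of -0.91 (SE 0.10, adjusted p = 6.83e-04, edgeR's quasi-likelihood test). Tspan15 was measured at 7.44, 8.56 and 8.26 CPM in MPC and at 5.30, 5.32 and 5.23 CPM in MPC-PTX. The MPC-PTX values of Tspan15 were nearly equal and all below MPC, at a log2 fold change of -0.61 (SE 0.11, adjusted p = 0.00718, edgeR). Tspan14 had 152.3, 175.2 and 166.2 CPM in MPC and 115.5, 113.3 and 107.2 CPM in MPC-PTX. The lines did not overlap for this gene either, and the log2 fold change was -0.56 (SE 0.07, adjusted p = 0.00158, edgeR). Tspan5 differed least of the called members, at 119.6, 128.8 and 120.7 CPM in MPC and 108.6, 104.8 and 106 CPM in MPC-PTX, with a log2 fold change of -0.21 (SE 0.06, adjusted p = 0.0393, edgeR).

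Tspan33, which is found in red cell precursors and activated B cells, ranged from 2.93 to 3.35 CPM in MPC and from 2.48 to 3.03 CPM in MPC-PTX, and the lines overlapped (adjusted p = 0.446, edgeR). Tspan10 was at 0 in all 6 libraries, which allows up to 3 counts in each. For Adam10 itself the MPC libraries were spread widely, at 85.5, 114.6 and 171.2 CPM, around the MPC-PTX values of 131.1, 129.3 and 136.7 CPM. The log2 fold change of Adam10 was 0.10 with a 95% interval from -0.45 to 0.65 (adjusted p = 0.782, edgeR's quasi-likelihood test). The result for Adam10 depended on single MPC libraries. Without MPC replicate 3, whose Adam10 level was the highest, the log2 fold change was 0.35 and the gene was called higher (adjusted p = 0.0368, edgeR). Without MPC replicate 1, whose level was the lowest, it was -0.11 and was not called (adjusted p = 0.654, edgeR). The difference between Adam10 and the TspanC8 genes was not tested.

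Of the 5 broadly expressed Cd-named members, Cd81 and Cd82 were called lower and the other three were not called, beside 15.6% of all tested genes called lower. Cd81, an entry factor of hepatitis C virus, had 207.7, 192.2 and 170.2 CPM in MPC and 156.9, 152.9 and 140.7 CPM in MPC-PTX. The lowest MPC value, that of replicate 3, lay just above the highest MPC-PTX value. The log2 fold change of Cd81 was -0.34 (SE 0.09, adjusted p = 0.0251, edgeR). Cd82, known as a suppressor of metastasis, had 55.4, 56.5 and 51.3 CPM in MPC and 46.7, 45.4 and 44.7 CPM in MPC-PTX, with a log2 fold change of -0.25 (SE 0.07, adjusted p = 0.0351, edgeR). The lines did not overlap for Cd82, but its call was kept in only 5 of 13 alternative fits, and Cd81 kept its call in 9.

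Of the vesicle markers, Cd81 was called and Cd9 and Cd63 were not, and differences between these genes were not tested. Cd9, which is needed on the egg for fusion with sperm, was measured at 315.4, 346.3 and 303.8 CPM in MPC and at 299.6, 287.2 and 300.6 CPM in MPC-PTX. Although the lines just failed to overlap, the log2 fold change of Cd9 was -0.12 with a 95% interval from -0.28 to 0.04 (adjusted p = 0.217, edgeR). Cd63, the tetraspanin of late endosomes and lysosomes, had 163.1, 173.5 and 150.0 CPM in MPC and 160.4, 161.4 and 160.1 CPM in MPC-PTX. Its MPC-PTX values fell inside the MPC range, at a log2 fold change of -0.01 with a 95% interval from -0.18 to 0.15 (adjusted p = 0.896, edgeR). For Cd151, the integrin-binding member, the MPC libraries gave 171.7, 163.8 and 138.6 CPM and the MPC-PTX libraries 162.5, 156.3 and 154.1 CPM. The log2 fold change of Cd151 was -0.00 with a 95% interval from -0.21 to 0.20 (adjusted p = 0.980, edgeR). The sign of the Cd63 and Cd151 values depended on the scaling of the libraries, so no direction is given for them.

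Among the remaining Tspan genes, Tspan9 and Tspan7 fell in MPC-PTX as well. Tspan9, known from platelets, had 148.9, 148.8 and 129.6 CPM in MPC and 77.5, 77.1 and 78.4 CPM in MPC-PTX. About 54.5% of the MPC level was left, with a log2 fold change of -0.88 (SE 0.07, adjusted p = 2.39e-04, edgeR). The 3 platelet markers were Pf4 and Gp9, which were at or near 0, and the chemokine gene Ppbp, which was also lower (log2 fold change -1.16). Tspan7, an X-linked gene with a role at neuronal synapses, had 151.4, 163.0 and 144.6 CPM in MPC and 109.6, 103.6 and 106.3 CPM in MPC-PTX. The lines were clearly separate, with a log2 fold change of -0.52 (SE 0.07, adjusted p = 0.00153, edgeR).

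Tspan2, a tetraspanin of oligodendrocytes, was the second gene called higher. It had 5.90, 6.24 and 7.93 CPM in MPC and 9.95, 10.8 and 12.8 CPM in MPC-PTX, so the spread within the lines was wide relative to the gap. The log2 fold change was 0.74 (SE 0.16, adjusted p = 0.0125, edgeR), and the adjusted p was 0.0568 without MPC replicate 2 and 0.0553 without MPC-PTX replicate 3. Tspan1, a member of glandular epithelia, had 290.6, 273.5 and 243.1 CPM in MPC and 238.8, 222.0 and 227.3 CPM in MPC-PTX. The lines were separate by a narrow gap, and the log2 fold change of -0.23 (SE 0.08) was not called (adjusted p = 0.0639, edgeR). Tspan3 had 108.4, 124.3 and 118.1 CPM in MPC and 101.4, 104.8 and 103.6 CPM in MPC-PTX, at a log2 fold change of -0.18 (adjusted p = 0.0979, edgeR).

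Tspan31 and Tspan4 were not called either. Tspan31, which neighbours Cdk4, ranged from 72.6 to 90.8 CPM in MPC and from 67.4 to 72.5 CPM in MPC-PTX, with a log2 fold change of -0.28 (adjusted p = 0.0737, edgeR). Its exons share 641 bases with Cdk4 on the other strand, and whether strand was used in the counting is not given in the sources used here, so reads of this stretch could belong to either gene. Tspan4, a component of migrasomes, ranged from 40.0 to 64.5 CPM in MPC and from 58.7 to 64.9 CPM in MPC-PTX (log2 fold change 0.32, adjusted p = 0.205, edgeR). Its exons share 292 bases with Chid1 on the other strand. Of the genes present in the count tables, Tead2 also shares exon bases with a member, 13 of them with Cd37.

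The leukocyte tetraspanins were low in both lines. Cd53 had 36, 55 and 62 reads in MPC and 112, 82 and 57 reads in MPC-PTX, or 1.91 to 2.98 CPM against 3.39 to 4.78 CPM. The lines did not overlap, and the log2 fold change of 0.62 (SE 0.23) was not called (adjusted p = 0.0780, edgeR). Tspan32 had 8 to 17 reads in each library, with overlapping lines (adjusted p = 0.429, edgeR). Cd37 was not tested, at 16 reads in all MPC libraries and 17 in all MPC-PTX libraries. Beside these values, the leukocyte markers, of which none passed the filter, went both ways. Ptprc had 3, 1 and 6 reads in MPC and 5, 6 and 5 in MPC-PTX, and Coro1a 7, 4 and 2 against 6, 5 and 6. Laptm5 had 6, 8 and 11 reads in MPC and 0 in every MPC-PTX library, and Cd52 had 5, 0 and 2 against 2, 0 and 0. The part of leukocyte RNA in the Cd53 reads was not tested.

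The other members left out of the test were Tspan10, Tspan11, Tspan12 and Tspan18. Tspan11 was at 0 in all libraries, which again allows up to 3 counts in each, and Tspan18 had 0 reads in MPC and 2 reads in MPC-PTX replicate 3. Tspan12, a co-receptor for the growth factor norrin, had 15 reads in MPC and 2 reads in MPC-PTX. The ratio of MPC to MPC-PTX for Tspan12, corrected for library size, was 7.72 with a 95% exact binomial (Clopper-Pearson) interval from 1.80 to 69.6. Such an interval pools the reads of the 3 libraries of a line and leaves out the spread between libraries. Copies of 1 molecule were not marked and could be read more than once, so it can understate counting error too. When genes with low counts were kept in the fit, the log2 fold change of Tspan12 was -2.77 (SE 0.92, adjusted p = 0.0548, edgeR).

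Levels of different genes were compared per length, as CPM per kilobase of exon. Cd9 was the most abundant tetraspanin in both lines, at 157.4 ± 10.8 in MPC and 144.7 ± 3.64 in MPC-PTX (SD, n = 3), followed by Tspan1 at 115.5 ± 10.3 and 98.5 ± 3.69. In MPC the places after these were held by Cd81 (66.0 ± 6.54), Tspan14 (62.1 ± 4.35) and Cd151 (57.7 ± 6.32), whose neighbours in this order overlapped. Tspan8 came sixth in MPC at 45.1 ± 1.53 CPM per kilobase, level with Cd63 at 44.1 ± 3.21. In MPC-PTX Tspan8 had dropped to place 14, at 8.55 ± 0.697, just above Tspan13 at 7.75 ± 0.132, which stood at place 17 in MPC with 2.99 ± 0.408. Tspan6 went from place 16 (6.62 ± 0.307) to place 21 (0.425 ± 0.168), and its MPC-PTX libraries overlapped those of Tspan33 above it. In MPC-PTX the levels of Tspan9, Cd82, Tspan7 and Tspan5 ran from 15.6 down to 14.4 CPM per kilobase, each overlapping its neighbour. At the foot of the list Tspan32 reached 0.101 ± 0.0401 in MPC and 0.0742 ± 0.0203 in MPC-PTX. With the longest transcript as the length, Cd9 and Tspan1 stayed first and second and Tspan8 stood at place 7 in MPC and 14 in MPC-PTX.

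**Figure D3:**
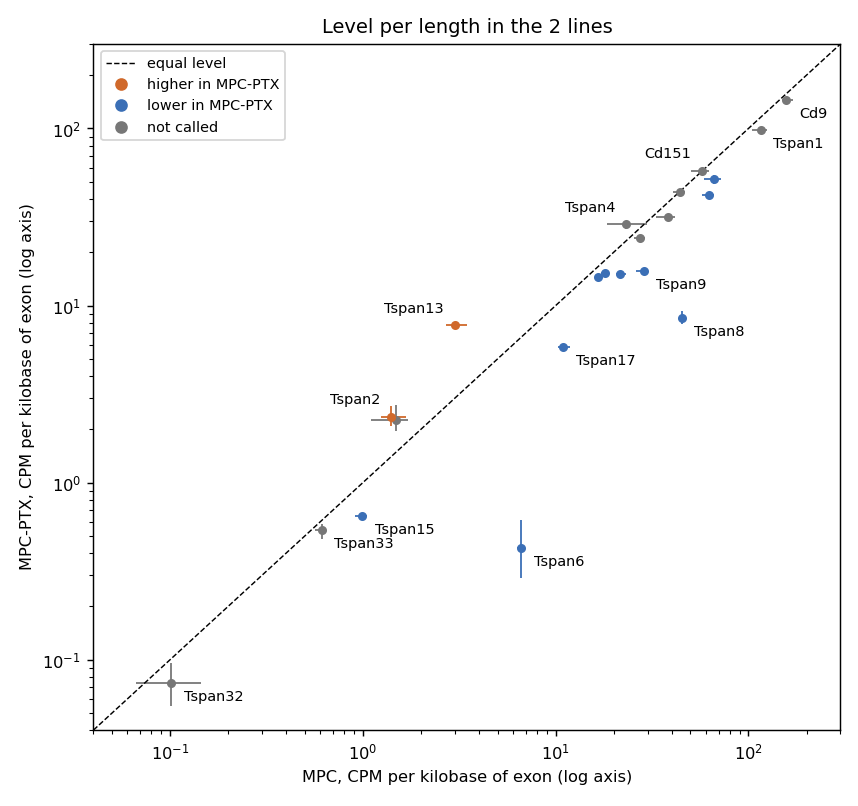
Mean level of the 22 tested tetraspanin genes in CPM per kilobase of exon, MPC on the horizontal and MPC-PTX on the vertical log axis, with bars from the lowest to the highest library and a dashed line of equal level. Most genes lie on or slightly under the line, Tspan8 (45.1 against 8.55) and Tspan6 (6.62 against 0.425) lie far under it, and Tspan13 (2.99 against 7.75) lies above it.

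A list of 48 genes was read, made of genes whose proteins are known to associate with tetraspanins and 4 tetraspanins outside the naming rule. Of these 4, 2 were tested and 1, Upk1a, fell. Over the whole list 37 genes could be tested. Of these 13 fell and 3 rose in MPC-PTX, beside the backgrounds of 15.6% and 14.1%, and their median log2 fold change was -0.10. The syntenin and syndecan group, which links tetraspanins to vesicle formation, had 4 of 6 tested genes lower and none higher. Sdcbp, which encodes syntenin, had 144.4, 149.7 and 167.3 CPM in MPC and 61.9, 60.3 and 60.4 CPM in MPC-PTX, a log2 fold change of -1.34 (SE 0.08, adjusted p = 4.1e-05, edgeR). Its paralog Sdcbp2 had 74.8, 86.3 and 79.7 CPM in MPC and 35.4, 35.9 and 34.9 CPM in MPC-PTX, a log2 fold change of -1.18 (SE 0.08, adjusted p = 8.4e-05, edgeR). In MPC-PTX both were below every MPC library by a wide gap. Their relation to Tspan6 was not tested, and the genes around them were not read. The syndecans Sdc1 and Sdc4 fell by less, with log2 fold changes of -0.51 and -0.33. The vesicle-budding genes Pdcd6ip (-0.09) and Tsg101 (-0.05) were not called, although Tsg101 was called lower without MPC replicate 3 (-0.15, adjusted p = 0.0369, edgeR).

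Of the integrin and EWI partners, 1 gene of each group fell and none rose. Among the integrin subunits, Itga3 fell (log2 fold change -0.29, SE 0.08, adjusted p = 0.0341, edgeR), a call that was lost without MPC replicate 2 (adjusted p = 0.0904) or without any 1 of the MPC-PTX libraries (adjusted p from 0.109 to 0.127). Itga6 (-0.48, SE 0.15), Itgb1 (0.23, SE 0.10) and Itgb4 (-0.04, SE 0.06) were not called, and Itga7 had too few reads for the test. Itga6 was close to the threshold (adjusted p = 0.054, edgeR) and was called lower in 7 of 13 alternative fits, among them DESeq2 (adjusted p = 0.00687), the replicate block (0.0259) and the removal of GC and length trends (0.0132). Itgb1 was called higher in 2 of them, after removal of GC and length trends (adjusted p = 0.00905) and without MPC replicate 3 (5.7e-04, log2 fold change 0.29). Without MPC replicate 3, Itga6 (-0.37, adjusted p = 0.0202, edgeR) and Itgb4 (-0.14, adjusted p = 0.0283) were called lower. Of the EWI proteins, which bind Cd9 and Cd81 directly, Ptgfrn fell (-0.34, SE 0.06, adjusted p = 0.00409, edgeR), whereas Igsf8 (0.20, SE 0.08) and Igsf3 (-0.25, SE 0.11) were not called. Igsf8 was called higher after removal of GC and length trends (0.24, adjusted p = 0.0186, edgeR). Igsf3 was called lower without MPC replicate 1 (-0.37, adjusted p = 0.00386, edgeR). Adam17, a sheddase related to Adam10, had a log2 fold change of 0.08 (SE 0.14) and was not called, but without MPC replicate 3 it was called higher (0.19, adjusted p = 0.0472, edgeR). In the adhesion group 4 of 5 tested genes fell, beside 15.6% of all tested genes, with values from -0.62 for Vcam1 to -0.50 for Cldn7, and Cd44 (0.03) was not called. Epcam, counted here as lower, is the same gene that was counted among the epithelial markers. Among the growth factor and receptor genes Egfr (-0.35) and Erbb2 (-0.28) fell.

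The 3 partner genes that rose were Ifitm1, Zdhhc2 and Cd47. Ifitm1, an interferon-induced membrane protein found with Cd81 and Cd9, had 150.4, 111.6 and 97.5 CPM in MPC and 257.2, 243.7 and 249.5 CPM in MPC-PTX. The MPC-PTX libraries lay close together and far above MPC, at a log2 fold change of 1.06 (SE 0.15, adjusted p = 0.00291, edgeR). Zdhhc2, an enzyme that attaches palmitate to tetraspanins, had a log2 fold change of 0.60 (SE 0.08), and Cd47 had one of 0.29 (SE 0.06). The uroplakin Upk1a, a tetraspanin that the naming rule leaves out, had 4.78, 5.88 and 5.48 CPM in MPC and 1.03, 0.947 and 0.891 CPM in MPC-PTX. It was therefore a further tetraspanin gene that fell, with a log2 fold change of -2.48 (SE 0.17, adjusted p = 1.12e-04, edgeR). Of the other tetraspanins outside the naming rule, Rom1 did not pass the threshold (-0.11, SE 0.24) and Upk1b and Prph2 had 0 to 3 reads per library.

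**Figure D4:**
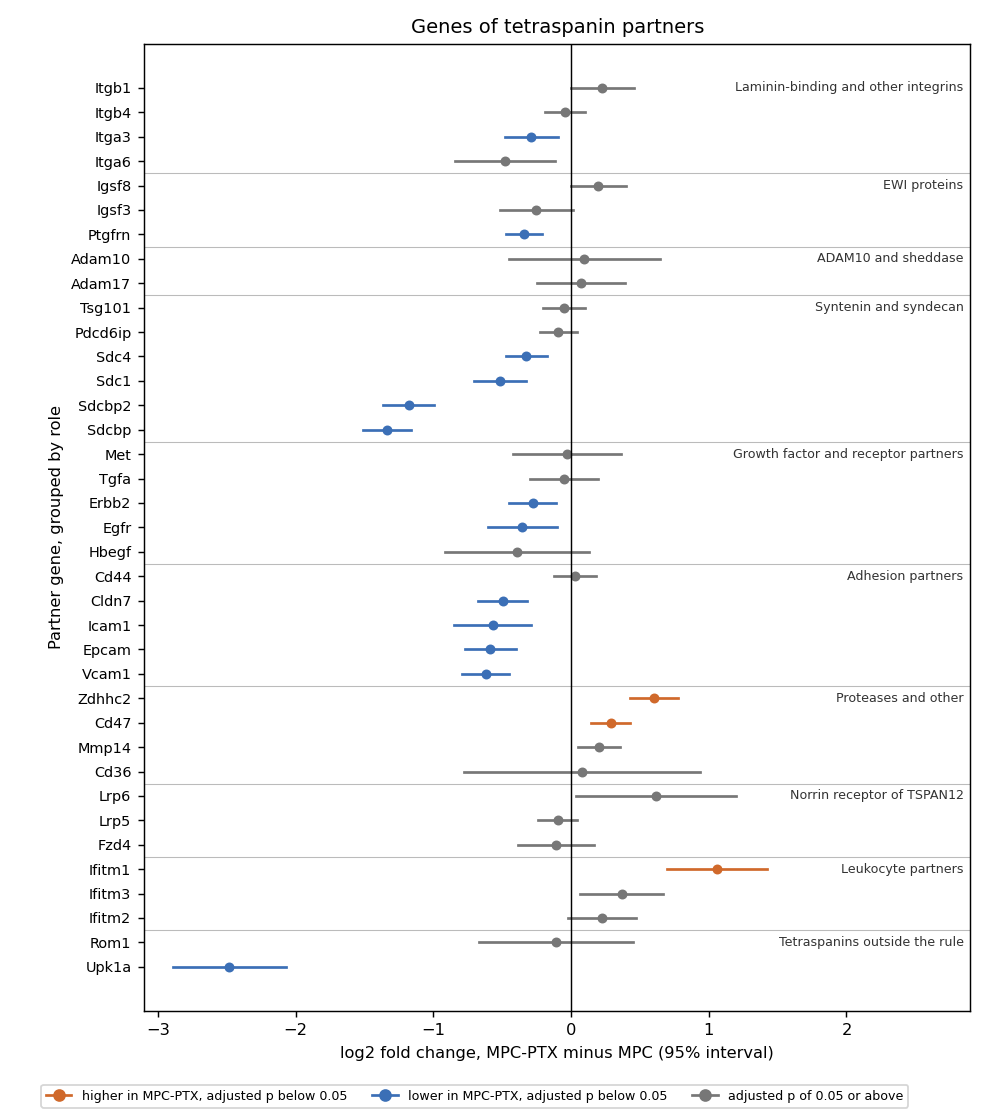
Log2 fold change (MPC-PTX minus MPC) of the 37 tested genes of the partner list by role, with 95% intervals from edgeR's quasi-likelihood fit. Among them are 2 tetraspanins outside the naming rule, Upk1a and Rom1. Sdcbp (-1.34), Sdcbp2 (-1.18) and Upk1a (-2.48) lie furthest to the left, Ifitm1 (1.06) lies furthest to the right, and the interval of Adam10 spans 0.

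How far these calls rested on single libraries differed between genes. Tspan6, Tspan8, Tspan17, Tspan9, Tspan15, Tspan14, Tspan7 and Tspan13 were called in the same direction in all 13 alternative fits, including those that left out each library in turn. These fits do not include glmTreat, which asks for a change above 1. Cd81 was called in 9 of them, Tspan5 in 6 and Cd82 in 5, and their adjusted p reached 0.111, 0.168 and 0.145. Without MPC replicate 3, 15 tetraspanin genes were lower and 3 were higher, but the background grew as well, to 27.1% and 25.4% of the genes tested in that fit. The genes gained in this way were Tspan1 (log2 fold change -0.35), Tspan31 (-0.43), Tspan3 (-0.23), Cd9 (-0.21) and Cd151 (-0.14) among the lower and Cd53 (0.69) among the higher. Without MPC replicate 1, Tspan4 was called higher (log2 fold change 0.53, adjusted p = 0.00618, edgeR) and Tspan3 was called lower. Leaving out MPC replicate 2, or any 1 of the MPC-PTX libraries, reduced the number called lower to 7. The share of all tested genes called was not taken in those fits. Of the 16 called genes of the partner list, 10 were called in all 13 alternative fits. They were Sdcbp, Sdcbp2, Sdc1, Ptgfrn, Epcam, Cldn7, Vcam1, Ifitm1, Zdhhc2 and the tetraspanin Upk1a. Sdc4 and Icam1 were called in 11 of these fits, Itga3 and Erbb2 in 9, and Egfr and Cd47 in 8. Without MPC replicate 3, 10 partner genes that had not been called passed the threshold. Besides those named above, they were Lrp6 (log2 fold change 0.92), Ifitm3 (0.195) and Mmp14 (0.17) among the higher and Lrp5 (-0.18) among the lower.

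**Figure D5:**
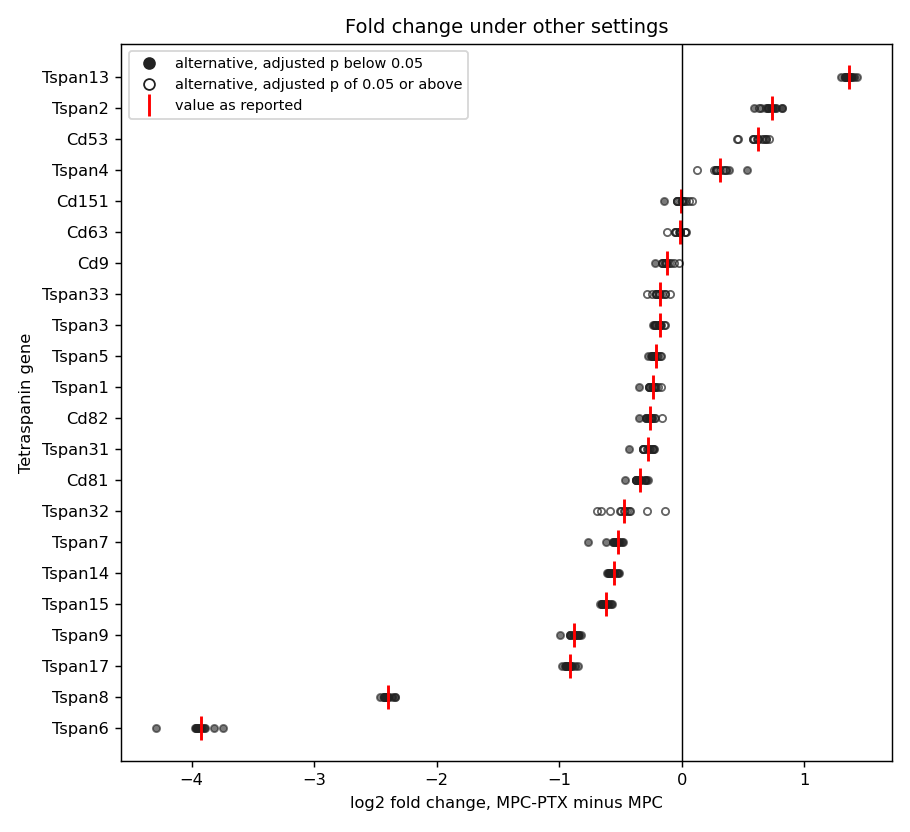
Log2 fold change of each tested tetraspanin gene under the alternative fits (circles, filled where the adjusted p was below 0.05) and as reported (red bars). The values of Tspan6 run from -4.29 to -3.74 and those of Tspan13 from 1.30 to 1.44, all filled, whereas the circles of Cd63 and Cd151 lie on both sides of 0.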

How the data were processed

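Per the labels and the study's methods, poly-A RNA was sequenced, and the authors filtered the reads with fastp (0.22.0, submitters' processing notes) and aligned them with HISAT2. They deposited raw counts per gene for each of 6 libraries, without normalization or pooling. The genome release, annotation, counting tool and use of strand are not given in the sources used here. From the counts, library sizes were scaled by TMM, genes were filtered with filterByExpr (minimum count 10), and the lines were compared with edgeR 4.0.16 in R 4.3.3 (glmQLFit with robust estimation, glmQLFTest, Benjamini-Hochberg adjustment over 11795 genes). All tests were two-sided. CPM use the scaled library sizes. Lengths and GC content came from GENCODE mouse release 21, matched by gene ID (27 of 27 members and 21851 genes in all). The fit was tested on simulated data. With 3 libraries against 3, an exact permutation test of a single value cannot pass 0.05, so no such test is given. The members, the lists of partners and markers and the settings were chosen with earlier results of these data known. Values in every library are given for members that were called or reached 100 CPM, and named partners are those beyond a log2 fold change of 1, those that carry integrin, EWI, ADAM10 or syntenin roles, and examples of the other roles chosen after their values were seen. Alternatives were DESeq2 1.42.0, other scalings and filters, a replicate block, removal of GC and length trends, glmTreat and leaving out each library. The 13 alternative fits counted per gene do not include glmTreat.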

Additional observations from a re-analysis of the deposited data

How the results depend on the processing

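Tspan6, Tspan8, Tspan13 and the other members called in all 13 alternatives kept their direction and call in these fits, which do not include glmTreat. The number of members lower beyond a log2 fold change of 1 was 2 in every fit, glmTreat among them. The number called higher (2) ranged from 1 to 3 when single libraries were left out, and the number called lower (10) from 7 to 15. It was 8 with library size alone, with no filter on low counts and with the replicate block. With glmTreat the number higher beyond 1 was 0 in place of 1, since that test asks for a change above 1 (1 member had an unadjusted p below 0.05 there, and DESeq2 called 1).

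On the partner list, 3 genes were called higher. The number was 8 after removal of GC and length trends, 5 with library size alone and 5 with the replicate block. It was 2 to 9 when single libraries were left out (9 without MPC replicate 3). The number of genes on that list called lower (13) ranged from 8 to 18 (8 without MPC-PTX replicate 2, 18 without MPC replicate 3). Beyond the construction of these fits, the cause was not tested. For members and partners alike, the share of all tested genes called was taken only in the main fit and without MPC replicate 3. It was 15.6% lower and 14.1% higher in the main fit, against 27.1% and 25.4% without MPC replicate 3. The other counts stand without that share and are not read as particular to these genes.

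Among the members and the 17 genes of the partner list named by the rule, signs changed in Cd63, Cd151, Itgb4, Adam10 and Adam17. Cd63 was 0.0287 after removal of GC and length trends and 0.0246 with library size alone, and ranged from -0.12 to 0.0365 over the left-out libraries. Cd151 was 0.0853 and 0.0357 in the same fits and 0.00145 with the replicate block, and ranged from -0.141 to 0.0598. After removal of GC and length trends Itgb4 was 0.0144 and Adam10 was -0.032. Leaving out single libraries moved Adam10 between -0.11 and 0.35 and Adam17 between -0.0409 and 0.19. Among the 285 member values under alternatives, 242 kept their direction and side of the threshold, 21 lost a call, 12 gained one and 10 changed sign.

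Whether replicate numbers pair the libraries was not settled. The deviations of same-numbered libraries correlated at 0.151, -0.0227 and 0.173. MPC replicates 1 and 3 were closest to their own numbers, but MPC-PTX replicate 1 correlated at 0.153 with MPC replicate 2. The deviations were taken from the mean of the line's own libraries, so these correlations are not independent and cannot decide the question. Under the block Cd82 and Tspan5 lost their calls.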

Other observations

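The genes around the tetraspanin genes were read from the same fit, in which 15.6% of all tested genes were called lower and 14.1% higher. Of the tested genes within 1 Mb of Tspan6, 9 in number, 1 fell and 2 rose, with a median log2 fold change of -0.06. Near Tspan8 there were 7 tested genes, of which 2 fell, with a median of -0.05 and a lowest value of -3.22. Near Tspan13 there were 5, of which 1 fell and 1 rose, with a median of -0.02. Near Tspan14 there were 3 tested genes, with log2 fold changes between -0.97 and -0.64, of which 2 fell. Near Tspan17, 14 of 33 tested genes fell and 1 rose (median -0.29), beside the shares of all genes given above. Near Tspan1, 15 of 34 rose and 1 fell (median 0.36), while Tspan1 itself was at -0.23. Near Cd63, which was not called, 19 of 41 fell and 3 rose (median -0.23). Near Tspan31, also not called, 13 of 32 fell and 2 rose (median -0.21). The windows of the other members are not given here. No test was made of these windows.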
